A study of Bos taurus with 4 samples.

Results

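DAB2 encodes an adaptor protein of clathrin-mediated endocytosis, and its transcript was followed here in bovine blastocysts. It was measured by every probe that carries the symbol DAB2 in the platform annotation, 4 of 43794 probes on the array, and is 1 of 15216 gene symbols. The gene was chosen by its log2 ratio of 8 over 14 months on these arrays, so its ratios and intensities are given as a description and without a test. Early blastocysts were produced in vitro from oocytes of Holstein heifers and collected 168 h after fertilization. Each of 4 heifers (n = 4) gave oocytes at 8 and at 14 months of age after ovarian stimulation with FSH, and semen of the same bull was used throughout. Both embryo pools of a heifer were hybridised on 1 two-colour array, with the 8-month pool in Cy5 for heifers 1 and 2 and in Cy3 for heifers 3 and 4. The collection at 8 months came first in every heifer, so age and order of collection cannot be told apart.

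DAB2 binds the cytoplasmic tails of receptors of the LDL receptor family through its phosphotyrosine-binding domain, and it binds clathrin and the AP2 complex through its central part. Its C-terminal part recruits the motor protein myosin VI, and the protein also takes part in TGF-beta and Wnt signalling. In the mouse embryo Dab2 is known from the primitive and visceral endoderm, the epithelium that covers the inner cell mass, where its loss disturbs epithelial order. In human placenta DAB2 is known from trophoblast, and it is also expressed in macrophages and ovarian epithelium.

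Between 26.9% and 51.1% of all probes were above background in a sample, where background is the mean of 153 negative control spots plus 2 SD. After filtering on this measure 8398 genes were compared, each by its brightest detected probe. The log2 ratios of all tested probes correlated at 0.61 between heifers 1 and 2 and at 0.39 between heifers 3 and 4, across probes, which are not independent replicates. Between heifers of opposite dye orientation the correlation was 0.002 to 0.12. Of the markers of the blastocyst, KRT8, KRT18 and GATA3 of the outer trophectoderm and POU5F1 and NANOG of the inner cell mass were above background in all 8 samples. CDX2 exceeded the limit in 3 of the 8-month and 2 of the 14-month pools, SOX2 in 4 and 3, and the endoderm factor SOX17 did not pass the filter.

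The brightest DAB2 probe, EMBV3_11023, was lower at 8 than at 14 months in every heifer. Its median spot intensity in the 8-month pools was 1649, 3567, 3912 and 1448 in heifers 1 to 4, and in the 14-month pools 3226, 6318, 5100 and 1825. Before any dye correction the log2 intensity ratio was thus -0.97, -0.82, -0.38 and -0.33, lower where the 8-month pool was in Cy5. These intensities give the ratio by which the gene was chosen, so nothing is read from their shared sign. After background correction and loess the log2 ratio of 8 over 14 months was -0.87, -0.74, -0.89 and -0.79. The mean was -0.82 ± 0.07 (SD, n = 4), a level 1.77-fold higher at 14 months. The mean of heifers 1 and 2 was -0.81 and that of heifers 3 and 4 was -0.84, and the dye term of the fit was 0.02. All 8 intensities exceeded the background limit, by 4.33 to 48.7 times, and none came near the scanner's maximum of 65535. As the RNA came from pools of whole embryos, fewer cells with the transcript and less transcript per cell cannot be told apart.

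The second probe, EMBV3_35105, had the same sign with a smaller size. Its log2 ratios were -0.59, -0.54, -0.53 and -0.26 in heifers 1 to 4, with a mean of -0.48 ± 0.15 (SD, n = 4), or 1.39-fold. Heifer 4 had the ratio closest to 0, and all 8 intensities were above background. Its uncorrected log2 intensity ratio was -0.66 and -0.64 in heifers 1 and 2 but 0.09 and 0.24 in heifers 3 and 4, so that the sign in the latter pair rests on the dye normalization.

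The third probe, EMBV3_16285, was also bright in all 8 samples, at 5.62 to 15.6 times the background limit, and showed little difference. Its log2 ratios were -0.14, 0.07, -0.18 and -0.38, with a mean of -0.16 ± 0.19 (SD, n = 4). The SD exceeded the mean, and 3 of 4 heifers had a lower value at 8 months. Its uncorrected log2 intensity ratio was -0.24, -0.04, 0.45 and 0.035, so that the sign in heifers 2, 3 and 4 rests on the dye normalization.

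The fourth probe, EMBV3_13297, lay at the edge of detection. It exceeded the limit in 3 of the 4 pools from 8 months and in all 4 from 14 months, at 0.905 to 1.60 times the limit. Its log2 ratios were -0.11, -0.62, 0.10 and 0.20, a mean of -0.11 ± 0.37 (SD, n = 4). The sign followed the dye orientation, with means of -0.36 in heifers 1 and 2 and 0.15 in heifers 3 and 4, and the size of such a dim ratio is uncertain. The uncorrected log2 intensity ratio of this probe was 0.33, -0.26, 1.26 and 0.92 in heifers 1 to 4.

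**Figure D1:**
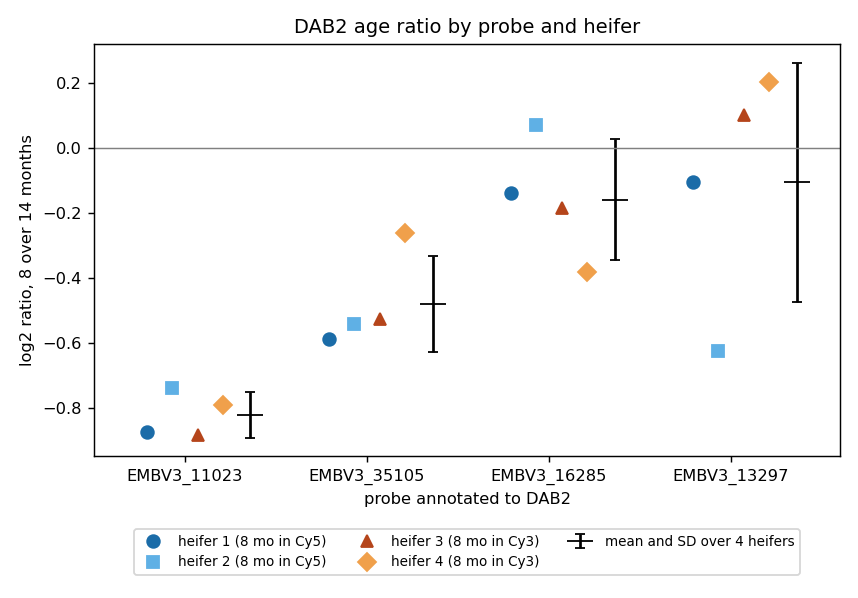
The log2 ratio of 8 over 14 months is plotted for each of the 4 DAB2 probes, with a symbol for each heifer and the mean and SD over 4 heifers in black. The probe EMBV3_11023 lies between -0.89 and -0.74 and EMBV3_35105 between -0.59 and -0.26, whereas EMBV3_16285 and EMBV3_13297 have heifers on both sides of 0.

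After normalization the 4 probes therefore gave the same average sign and unequal sizes. All 4 heifers were below 0 for 2 of the 4 probes, and over all genes tested this was so for 15.2%, a share from which nothing is read since this contrast chose the gene. Within each heifer, EMBV3_11023 had a lower ratio than EMBV3_16285, by -0.73, -0.81, -0.70 and -0.41 on the log2 scale. It was also lower than EMBV3_35105 in each heifer, by -0.29, -0.20, -0.36 and -0.53. Averaged over the 4 probes the ratio was -0.43, -0.46, -0.37 and -0.31 in heifers 1 to 4, a mean of -0.39 ± 0.07 (SD, n = 4), or 1.31-fold. Averaged over the 3 probes above background in all 8 samples it was -0.49 ± 0.06, or 1.40-fold. The fold for DAB2 thus depended on the probe, from 1.08 to 1.77.

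The distance between the highest and the lowest DAB2 probe was 0.72 on the log2 scale. Among the 81 genes with at least 4 tested probes the median of this distance was 0.39, with quartiles of 0.27 and 0.58, and 6 genes (7.41%) exceeded DAB2. All probes shared 1 sign after normalization in 22 of these 81 genes, DAB2 among them. The lowest DAB2 probe is the one by which the gene was chosen, and the highest, EMBV3_13297, lay at the edge of detection. Nothing is therefore read from the place of DAB2 among these genes. The platform table gives no accession for the DAB2 probes, so the part of the transcript that each probe reads is not known here. RefSeq lists 5 transcripts of bovine DAB2, and whether the probes read different ones was not tested.

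**Figure D2:**
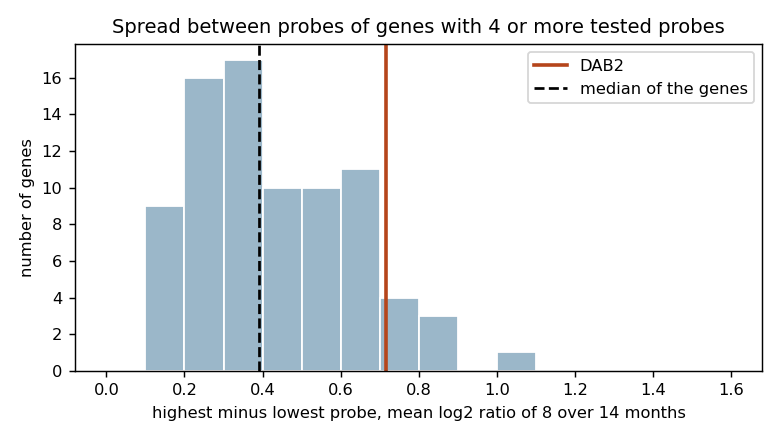
The histogram counts genes with 4 or more tested probes by the distance between their highest and lowest probe in mean log2 ratio of 8 over 14 months. DAB2, the solid line at 0.72, lies to the right of the median of 0.39, the dashed line, with 6 of 81 genes beyond it. As DAB2 was chosen by its ratio, nothing is read from this place.

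By its brightest probe, DAB2 also differed between heifers, by more than between the mean of the ages. For EMBV3_11023 the normalized log2 intensity at 8 months was 10.71, 11.78, 11.55 and 10.37 in heifers 1 to 4, a mean of 11.10 ± 0.67 (SD, n = 4). At 14 months it was 11.59, 12.52, 12.44 and 11.16, a mean of 11.93 ± 0.66. Heifers 2 and 3 were high and heifers 1 and 4 low at both ages, so the ranges of the ages overlapped although each heifer was lower at 8 months. The highest and the lowest heifer differed 2.67-fold at 8 months and 2.57-fold at 14 months.

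The probe EMBV3_35105 ordered the heifers in the same way at both ages, from heifer 4 through 1 and 3 to 2. Its log2 intensity ran from 10.05 to 10.72 at 8 months and from 10.32 to 11.27 at 14 months. EMBV3_16285 had another order, with heifer 3 lowest at both ages, and spanned 1.44-fold at 8 and 1.24-fold at 14 months. EMBV3_13297 had yet another, with heifer 4 highest at both ages. These levels rest on scaling between arrays, and all values of a heifer come from the same array, so animal and array cannot be told apart in them.

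**Figure D3:**
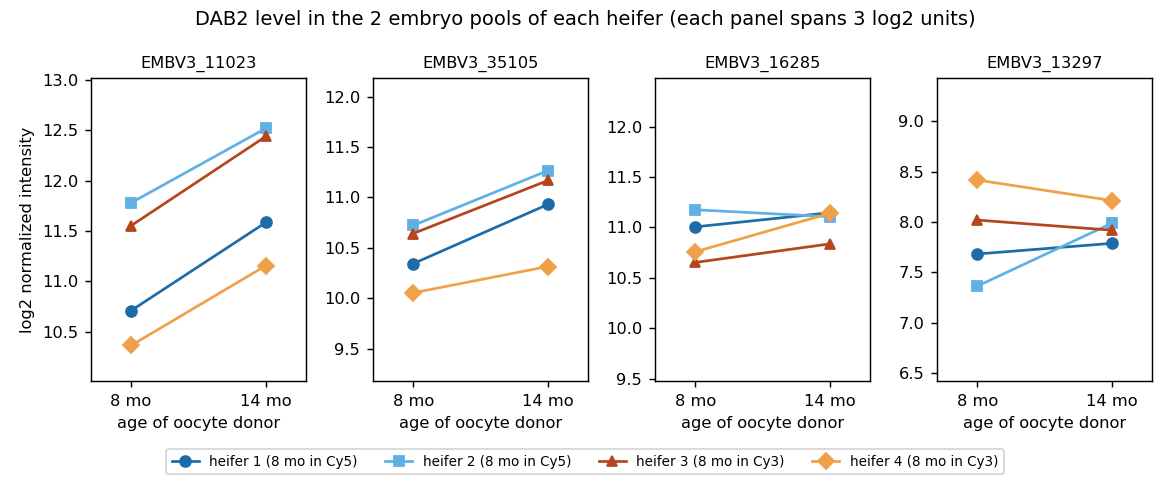
The normalized log2 intensity of each DAB2 probe is drawn for the 8-month and the 14-month pool, with a line for each heifer, in panels of equal height. The lines of EMBV3_11023 run nearly parallel and upward to 14 months and keep heifers in the order 4, 1, 3 and 2, which EMBV3_35105 repeats. Those of EMBV3_16285 and EMBV3_13297 cross.

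The place of the spots and the authors' own normalization were set beside these values. The tested probes within 5 rows and 5 columns of EMBV3_11023, 48 in number, had a median log2 ratio of 0.05, 0.04, 0.03 and -0.09 in heifers 1 to 4, and DAB2 lay -0.93, -0.78, -0.92 and -0.70 from it. For EMBV3_35105 the 43 neighbours had medians between -0.16 and -0.01. The authors' deposited table gave ratios of -0.82, -0.69, -0.98 and -0.76 for EMBV3_11023 once turned to 8 over 14 months. For EMBV3_35105 the authors' deposited table gave -0.54, -0.50, -0.56 and -0.25, and for EMBV3_16285 -0.09, 0.13, -0.23 and -0.38. The order of the probes was the same as in the scanner data.

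Among the 8398 genes the brightest DAB2 probe had the sixth-lowest mean ratio, with rank 6 counted from the lowest. Single heifers placed it at rank 164, 256, 55 and 91, so 0.643% to 3.04% of genes were lower on 1 array. Its SD over heifers of 0.07 compares with a median of 0.25 over all genes, and 2.62% of genes had a smaller one. The fitted value was -0.82 ± 0.10 (SE). These ranks, the SD and the fit rest on the ratios by which the gene was chosen, so nothing is read from its place among the genes.

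The 8 other genes whose ratios in the 4 heifers lay closest to those of EMBV3_11023 were found by the root mean square difference over heifers, and are listed by this measure with no test, since it rests on the same ratios. ITGA5, the alpha subunit of the fibronectin receptor, differed by 0.15 with ratios of -0.82, -0.67, -0.63 and -0.66. PABPC1, the cytoplasmic poly(A)-binding protein (0.15), EIF1, a translation initiation factor (0.15), and the uncharacterised LOC614643 (0.16) followed. Next were the histone methyltransferase KMT5B (0.18), the centriole duplication factor STIL (0.21), the mRNA decay factor PATL1 (0.22) and the m6A reader YTHDF1 (0.23). The other detected probe of EIF1 had the opposite sign, as did 1 of 2 other probes of KMT5B and of YTHDF1.

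The machinery around DAB2 was examined in 6 lists of genes with 104 members, of which 68 were detected. Of these, 2 rose at 8 months, 0 fell and 66 did not pass (limma, adjusted over all genes), a share of 2.94% beside 4.5% of all genes tested. Their median log2 ratio was -0.02 and that of all genes 0.00. The genes that rose were CLTB, a clathrin light chain, and PACSIN3, which shapes the membrane during endocytosis. At an unadjusted p under 0.05, 20 of the 68 (29.4%) passed, near the 27.3% of all genes tested (2295 of 8398) that did so. Both calls were lost without heifer 1, 2 or 3, with 0 members passing in each case, and without heifer 4 the count was 3. Over all 8398 genes the counts without heifers 1 to 4 were 0, 0, 2 and 339, beside 378 with all 4. When arrays were centred on their median without loess, the median of all genes was -0.18. In that setting 2 of the 68 members were called higher and 20 lower, beside 39 higher and 2039 lower of all 8398 genes.

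Receptors that DAB2 carries were poorly covered. Of 12 listed, 8 had a probe under their symbol and 2 were detected, beside 8398 of 15216 gene symbols detected over the array. LRP6, a Wnt co-receptor, had a log2 ratio of 0.28 ± 0.13 (SE, limma, adjusted p = 0.196), and LRP8, a receptor for reelin and apolipoprotein E, had 0.01 ± 0.11. The probes of the cubilin gene CUBN, its partner AMN, the integrin subunit ITGB1 and the TGF-beta receptors TGFBR1 and TGFBR2 did not pass the filter on background.

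Of 9 detected genes of the coat, CLTB rose by 0.73 ± 0.10 (SE, limma, adjusted p = 0.0313) and 8 did not pass. Its ratios were 0.90, 0.95, 0.54 and 0.54 in heifers 1 to 4, and its adjusted p was 0.0257 to 0.226 with 1 heifer left out. AP2A2, an alpha subunit of AP2, the complex that DAB2 binds, had the smallest p among those with a negative ratio (-0.31 ± 0.10, adjusted p = 0.0976). The clathrin heavy chain CLTC had 0.08 ± 0.10 and the AP2 subunits AP2B1 and AP2M1 -0.14 ± 0.11 and -0.10 ± 0.10. The other detected probe of AP2B1 had the opposite sign.

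Of 12 other adaptors that were detected 0 passed, and 5 (41.7%) had an unadjusted p under 0.05 (limma), beside 27.3% of all genes. EPS15, a scaffold of the forming pit, had -0.38 ± 0.10 (adjusted p = 0.0723) and NECAP1, an AP2 partner, 0.41 ± 0.12 (adjusted p = 0.0734). NUMB, which has a phosphotyrosine-binding domain of the same kind as DAB2, had -0.06 ± 0.11, and its relative NUMBL 0.14 ± 0.11. DAB1, the neuronal relative of DAB2, did not pass the filter on background.

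Of 11 detected partners of DAB2 in signalling and motility 0 passed, and 2 (18.2%) had an unadjusted p under 0.05 (limma), against 27.3% of all genes. CD2AP, an adaptor that links receptors to actin, had -0.41 ± 0.11 (adjusted p = 0.065), and DVL2, a Wnt signal transducer, 0.31 ± 0.11 (adjusted p = 0.117). MYO6, the gene of myosin VI, had -0.04 ± 0.10, and SMAD2 and SMAD3, mediators of TGF-beta signals, 0.07 ± 0.10 and -0.01 ± 0.10. The interacting protein DAB2IP had 0.11 ± 0.10.

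Among 15 detected genes of vesicle fission and uncoating, PACSIN3 rose by 0.88 ± 0.13 (SE, limma, adjusted p = 0.0313), with 1.44, 0.83, 0.77 and 0.49 in heifers 1 to 4, and 14 did not pass. Without 1 heifer its adjusted p was 0.0257 to 0.226. At an unadjusted p under 0.05 (limma), 7 of the 15 (46.7%) passed, beside 27.3% of all genes. PACSIN1 had -0.37 ± 0.10 (adjusted p = 0.0759), but only 1 of its 4 samples from 8 months exceeded the background limit. The dynamin DNM2, which cuts the vesicle off, had -0.08 ± 0.11. Of 19 genes of the early endosome and recycling 0 passed, and 4 (21.1%) had an unadjusted p under 0.05, where 27.3% of all genes did. The endosomal tether EEA1 had -0.41 ± 0.10 (adjusted p = 0.0555) and the GTPase RAB5A 0.26 ± 0.11 (adjusted p = 0.169).

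**Figure D4:**
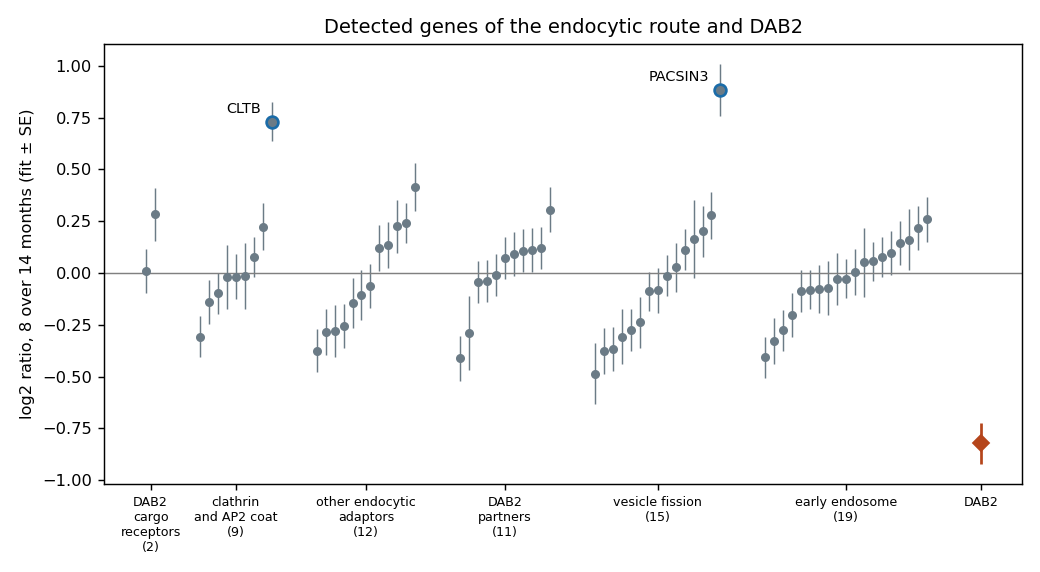
The fitted log2 ratio of 8 over 14 months with its standard error is shown for the detected genes of each endocytosis list, whose number is in brackets, and for the brightest DAB2 probe as a diamond. CLTB and PACSIN3, in blue, passed the test. DAB2 at -0.82 lies below every list gene shown, from which nothing is read since it was chosen by this ratio.

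DAB2 marks the endoderm in the mouse and trophoblast in the human placenta, so genes of these lineages were set beside it. Of 15 detected genes of the primitive endoderm 0 passed and 4 (26.7%) had an unadjusted p under 0.05 (limma), a share near the 27.3% of all genes, with a median log2 ratio of 0.01. GATA4, an endoderm transcription factor, had -0.22 ± 0.10 (adjusted p = 0.197), the fibronectin gene FN1 -0.60 ± 0.14 (adjusted p = 0.0542) and the lipoprotein gene APOA1 0.66 ± 0.27 (adjusted p = 0.159). FN1 had 0.14, -0.65, -1.13 and -0.75 in heifers 1 to 4. The summed normalized intensity of the list was 49292 to 84030 at 8 months and 73737 to 85758 at 14 months, and its part in the DAB2 ratio was not tested.

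The trophectoderm list was chosen with earlier results of these data known, so nothing is read from its share of calls. Of 15 detected trophectoderm genes 3 rose at 8 months, 0 fell and 12 did not pass, beside 1.7% of all genes called higher and 2.8% called lower. These were the transcription factors GATA2 (0.61 ± 0.10, limma, adjusted p = 0.0313), TFEB (0.60 ± 0.10, adjusted p = 0.0321) and TEAD4 (0.56 ± 0.10, adjusted p = 0.0351). In heifers 1 to 4 GATA2 had 0.95, 0.91, 0.28 and 0.28 and TFEB 0.89, 0.81, 0.38 and 0.32. TEAD4 had 0.91, 0.72, 0.38 and 0.25. The size thus differed with dye orientation, and without the dye term the adjusted p was 0.113 to 0.119 (limma). Without heifer 1, 2 or 3 all 3 were no longer called, where 0, 0 and 2 of all 8398 genes passed. They were also no longer called under median centring. There the 3 lineage lists together had 0 higher and 8 lower of 40 detected genes, beside 39 higher and 2039 lower of all 8398 genes. SLC2A1, a glucose transporter, had -0.37 ± 0.11 (adjusted p = 0.0853), and its other detected probe had the opposite sign. KRT8 had -0.30 ± 0.11 and KRT18 0.17 ± 0.10. Of the 15 trophectoderm genes 6 (40%) had an unadjusted p under 0.05 (limma), beside 27.3% of all genes. The summed intensity of the list was 138581 to 191391 at 8 and 140176 to 178532 at 14 months. For the inner cell mass 10 genes were detected, of which 0 passed and 3 (30%) had an unadjusted p under 0.05, near the 27.3% of all genes. Its core factors had 0.20 ± 0.11 (POU5F1), 0.09 ± 0.15 (NANOG) and 0.05 ± 0.12 (SOX2). The smallest p of each sign belonged to ESRRB (0.55 ± 0.14, adjusted p = 0.0567) and KLF5 (-0.23 ± 0.10, adjusted p = 0.176).

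Cells other than those of the embryo were also considered, since DAB2 is expressed in macrophages and in the ovary. Of 11 macrophage and blood cell markers 3 were detected, and the macrophage markers CD68, CD14, CSF1R, AIF1 and CD163 did not pass the filter. Over all gene symbols 8398 of 15216 were detected, and 4.5% of the detected genes passed the test. PTPRC, above the background limit in all 4 pools of either age, had 0.31 ± 0.12 (limma, adjusted p = 0.144). Of 14 cumulus and granulosa genes 6 were detected and 0 passed, with -0.70 ± 0.23 for HSD3B1 (adjusted p = 0.101) and 0.25 ± 0.11 for SERPINE2, and summed intensities of 8228 to 15858 at 8 and 7154 to 10841 at 14 months. Of 11 oocyte genes 3 were detected and 0 passed, with 0.20 ± 0.10 for OOEP and -0.15 ± 0.10 for ZP3. Of 8 sperm genes 3 were detected and 0 passed. PRM1, a sperm protamine, had -0.31 ± 0.10 (limma, adjusted p = 0.108). It exceeded the background limit in 0 pools from 8 months and in 3 from 14 months. The filter thus kept it through the 14-month pools only, and the limit differed between dyes and arrays, so nothing is read from these counts. At an unadjusted p under 0.05 (limma), 2 of the 6 cumulus and granulosa genes passed. So did 1 of 3 macrophage and blood cell, 0 of 3 oocyte and 1 of 3 sperm genes, beside 27.3% of all genes. The part of these cell sources in the DAB2 ratio was not tested.

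In the RefSeq annotation, used here for the order of genes only, DAB2 lies on chromosome 20 between PTGER4 and C9. Neither neighbour passed the filter on background. The nearest detected genes on either side did not pass. TTC33 had 0.12 ± 0.11 (limma, adjusted p = 0.502) and RICTOR, a subunit of the mTOR complex 2, -0.08 ± 0.10 (adjusted p = 0.601).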

How the data were processed

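The authors deposited, for each array, spot and surrounding intensity for Cy3 and Cy5, as raw linear values per the file headers. RNA of pooled embryos had been amplified linearly in 2 rounds, per the labels' protocols. The authors also deposited normalized log2 ratios in 2 tables, whose method is not stated. Set against the scanner ratios over bright probes, the first reads Cy5 over Cy3 (r = 0.993 to 0.998, slopes 0.974 to 1.004), so its log base was taken as 2, and the second reads 8 over 14 months. The column medians were 0.00364, 0.000285, 0.00139 and -0.00937 in the first table, and 0.00364, 0.000285, -0.00139 and 0.00937 in the second. Centring is not stated.

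Median intensities were corrected with normexp (offset 50) and normalized by loess within arrays, with control spots given no weight (limma 3.58.1, R 4.3.3). Levels were also scaled between arrays by Aquantile. Probes above background in at least 3 of 4 samples of either age were kept (17685). Of 43794 probes 21790 had 1 gene symbol and 22004 had no single symbol, and 1524 symbols were updated through RefSeq synonyms of ARS-UCD2.0. The fit (lmFit, eBayes) had an age term, signed by dye orientation, and a dye term. P-values were two-sided, adjusted by Benjamini-Hochberg over 8398 genes, with a threshold of 0.05. They rest on 2 residual degrees of freedom per gene and on the variance that eBayes borrows across genes. The standard error is the one moderated by eBayes across genes, and the residual spread behind it is that between heifers of like dye orientation. The code was tested on simulated data.

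DAB2 and the gene lists were chosen with earlier results of these data known. The rule for named genes took every DAB2 probe, the members of each list that passed and the one of each sign with the smallest p, the 8 genes closest to DAB2, fixed lineage markers and DAB1. Genes named beyond it were chosen for their role after their values were seen. The number of arrays limits the precision.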

Additional observations from a re-analysis of the deposited data

Results flagged for a closer look

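In 53 sets of 4 heifers (the ratios and levels of the 4 DAB2 probes and the ratios of 41 named genes), 3 held a heifer far from the others, where chance gives about 1 in 20. The level of the DAB2 probe EMBV3_16285 at 14 months was 10.84 in heifer 3 and 11.11 to 11.15 in the others. ESRRB had a ratio of 1.17 in heifer 3 and 0.26 to 0.40 in the others. HSD3B1 had 0.56 in heifer 2 and -1.15 to -1.09 in the others. No ratio of a DAB2 probe stood apart in this way.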

How the results depend on the processing

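The DAB2 ratio of -0.82 stayed within 1 SD under the other background corrections, mean pixel intensities, the authors' tables and with 1 heifer left out (-0.86 to -0.79). Both tables of the authors hold the same DAB2 values. Leaving out the dye term or changing the filter could not move this ratio, since the dye swap is balanced and the probe was kept fixed. The DAB2 ratio became -1.14 under median centring, or -0.95 relative to the median of all genes, and -0.39 as the mean of its probes. The other probes, chosen as alternatives after seeing the data, gave -0.48, -0.16 and -0.11. EMBV3_13297 was at 0.02 relative to all genes under median centring, and the other 3 kept their sign in the 6 settings examined. Over all genes 378 passed (143 higher, 235 lower), 207 with the mean over probes and 2078 (39 higher, 2039 lower) under median centring. With limma, 0 passed with mean pixel intensities, without the dye term or with ordinary standard errors (2252, 1544 and 1263 at an unadjusted p under 0.05, beside 2295), and 0 to 339 without 1 heifer. Of the endocytosis genes 22 passed under median centring, 0 in the 3 settings just named (22, 14 and 11 unadjusted) and 0 to 3 without 1 heifer. Of the lineage genes 8 passed under median centring, 0 in those 3 settings (10, 8 and 5 unadjusted), 5 among genes above background in all 8 channels, 5 in either table of the authors and 0 to 6 without 1 heifer. For the 13 named genes that passed, 111 values kept their call under the alternatives chosen first, 84 no longer passed and 0 changed sign. Leaving out spots that the scanner tables mark as ignored, an alternative added later, touched no DAB2 spot. Each ratio is taken within 1 array and so within 1 heifer, which makes the analysis paired by animal as it stands.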
